A study of Mus musculus with 5 samples.

Results

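A set of 40 genes that encode chromatin regulators acting against Polycomb or beside it was measured in Langerhans cells, which are phagocytes that reside in the epidermis. The members were taken by symbol from a list of enzymes and complex subunits, by function, and all 40 were matched among the 27179 genes of the count table. They comprise 2 demethylases of histone H3 lysine 27, 9 genes of the MLL/COMPASS complexes, 3 genes for H3 lysine 36 methyltransferases, 12 SWI/SNF subunits, 2 acetyltransferases of H3 lysine 27, 6 genes for enzymes that methylate DNA or oxidise methylated DNA, 3 histone deacetylases and 3 H3 lysine 9 methyltransferases. Messenger RNA came from 5000 purified cells per library, from the skin of C57BL/6 animals at an age of 1 week. They carried a conditional knockout of Suz12 (Suz12 cKO, 3 biological replicates) or were wild type (2 biological replicates). What drives the deletion, the cells in which it occurs and the number of animals behind a library were not stated in the labels.

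Polycomb repressive complex 2 (PRC2), of which Suz12 is a core subunit, methylates histone H3 at lysine 27, a mark of silent genes. Demethylases of the KDM6 family remove the mark, and the acetyltransferases CBP and p300 place an acetyl group on the same lysine. MLL/COMPASS complexes methylate lysine 4 of H3 at active promoters and enhancers, SWI/SNF complexes use ATP to move nucleosomes and evict Polycomb, and methylation of lysine 36 in transcribed genes hinders PRC2. DNA methylation, lysine 9 methylation and histone deacetylation are silencing systems that work in parallel with Polycomb.

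The libraries held 17384033, 25725900 and 12090062 counts in cKO replicates 1 to 3, and 18656968 and 17041996 counts in wild type replicates 1 and 2. Levels are given as CPM, counts per 1000000 after TMM normalisation. Where no read was counted, the level may still reach the value of 3 counts, which was 0.106 CPM in cKO replicate 2 and 0.258 CPM in cKO replicate 3. Reads amplified without molecular identifiers do not stand for separate molecules, so these limits and the Poisson or pooled counting intervals reflect counting error alone. The targeted gene was scarce throughout: Suz12 reached 0, 0 and 0.601 CPM in cKO, against 4.66 and 2.30 CPM in wild type. Cd207, which encodes the Langerhans cell lectin langerin, lay between 6639 and 14597 CPM in all libraries. The source label of all 5 names alveolar macrophages, but Siglecf, Car4, Chil3 and Fabp1 of that cell type had no count in any library. Ear2 lay between 63.8 and 466 CPM, Ear1 and Krt79 of the list were also counted in every library, and Marco (45.7 CPM in wild type replicate 1) and Fabp4 were found in wild type alone. The 9 genes of that list summed to 250, 164 and 374 CPM in cKO and to 697 and 226 CPM in wild type, with all 3 tested lower. Krt79 is also in the keratinocyte list given below and counts in both sums. It held 177, 98.2 and 115 CPM in cKO and 176 and 91.3 CPM in wild type. The 3 cKO replicates and the 2 wild type replicates are biological by the design text, and a p-value here reflects how far those libraries spread.

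None of the 40 regulators passed the test of genotype. Of the 37 with enough counts to test, 0 were called by edgeR's quasi-likelihood test at an adjusted p of 0.05, as were 0 of all 9988 genes tested (0%). A single member, Pbrm1, had an unadjusted p under 0.05, beside 415 (4.15%) of all genes tested. DESeq2 called 0 members as well, gave 3 of them an unadjusted p under 0.05, and called 2.12% of the 9019 genes to which it gave an adjusted p. The members divided evenly, with 19 higher and 18 lower in cKO and a median log2 fold change of 0.20, against 0.06 over all genes tested. With limma-voom and quality weights the split was 10 higher to 27 lower and the median was -0.52. No overlap between the 3 cKO and the 2 wild type libraries was seen for 10 members (27% of those tested), against 19% of all genes tested. These were 8 members lower in cKO (21.6%), against 10.2% of all genes tested, and 2 members higher (5.41%), against 8.87%. With 3 libraries against 2, the smallest one-sided p of an exact permutation test is 0.1. The two-sided test used here doubles it, to 0.2, which was the value for each of these 10. Groups that do not overlap give that value by construction, so it adds no support.

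**Figure D1:**
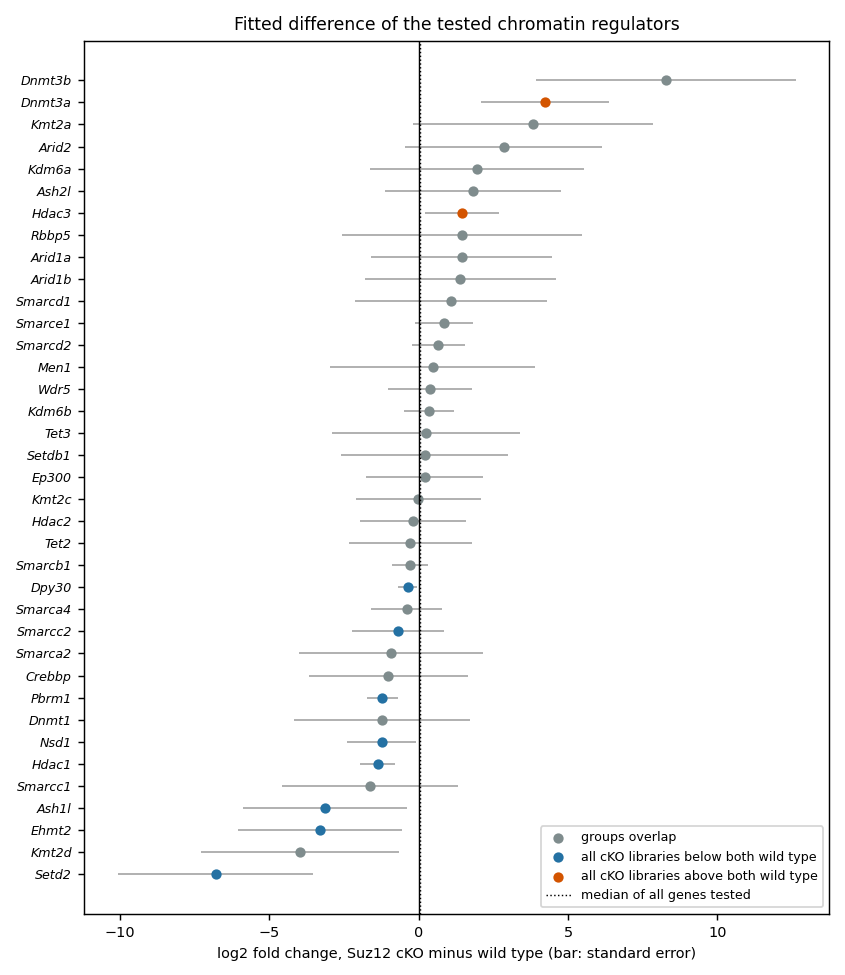
Fitted log2 fold change (Suz12 cKO minus wild type) of the 37 tested chromatin regulators, with bars of 1 standard error. Blue and orange points are the 8 and 2 members whose groups did not overlap, and the dotted line is the median over all genes tested, 0.06.

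The 4 regulators below had groups that did not overlap, group means that differed at least 2-fold, and a promoter sequence in RefSeq (build GRCm38.p6, the coordinates of mm10). Of the 8 members with such values, Ash1l, Nsd1, Hdac1 and Hdac3 are named only. Each sequence runs 5′ to 3′ from 250 bases before to 50 bases after the most upstream start in the promoter table, which need not be the outermost annotated start of the gene, with CpG dinucleotides in capitals, since these are the substrate of DNA methyltransferases. Dnmt3a (chr12:3806730-3807029, plus strand), which encodes a de novo DNA methyltransferase, lay higher in cKO. Ehmt2 (chr17:34898224-34898523, plus strand), Pbrm1 (chr14:31018888-31019187, plus strand) and Setd2 (chr9:110532347-110532646, plus strand) lay lower.
Dnmt3a: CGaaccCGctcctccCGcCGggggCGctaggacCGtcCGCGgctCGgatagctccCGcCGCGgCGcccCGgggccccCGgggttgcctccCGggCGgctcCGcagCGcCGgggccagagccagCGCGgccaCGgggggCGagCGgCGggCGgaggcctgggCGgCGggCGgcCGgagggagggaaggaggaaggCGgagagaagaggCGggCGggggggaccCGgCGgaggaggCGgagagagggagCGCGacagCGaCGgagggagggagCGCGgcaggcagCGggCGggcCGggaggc
Ehmt2: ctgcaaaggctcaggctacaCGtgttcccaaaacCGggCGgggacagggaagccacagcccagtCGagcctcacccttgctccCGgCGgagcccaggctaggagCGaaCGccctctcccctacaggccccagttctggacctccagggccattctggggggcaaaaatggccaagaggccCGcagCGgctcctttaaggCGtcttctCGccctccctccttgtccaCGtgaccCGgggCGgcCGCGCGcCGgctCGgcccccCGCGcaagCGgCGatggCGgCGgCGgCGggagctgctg
Pbrm1: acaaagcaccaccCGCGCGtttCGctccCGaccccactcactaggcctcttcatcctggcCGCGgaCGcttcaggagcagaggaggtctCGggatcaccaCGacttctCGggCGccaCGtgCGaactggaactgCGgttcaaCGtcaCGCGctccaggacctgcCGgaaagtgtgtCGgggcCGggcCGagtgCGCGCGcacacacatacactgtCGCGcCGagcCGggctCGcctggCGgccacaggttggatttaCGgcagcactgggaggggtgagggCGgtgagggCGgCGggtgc
Setd2: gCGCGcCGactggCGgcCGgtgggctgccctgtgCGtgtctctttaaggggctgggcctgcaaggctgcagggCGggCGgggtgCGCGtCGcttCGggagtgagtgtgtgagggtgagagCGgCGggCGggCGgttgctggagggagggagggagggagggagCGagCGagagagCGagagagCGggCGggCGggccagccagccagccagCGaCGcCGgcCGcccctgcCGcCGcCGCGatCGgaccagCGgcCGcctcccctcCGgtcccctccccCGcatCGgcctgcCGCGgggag

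The windows held 46 CpG dinucleotides at Dnmt3a, 28 at Ehmt2, 35 at Pbrm1 and 38 at Setd2. The letters CG read the same on both strands. Windows were found for 31 of the 40 members, with a median of 30 CpG dinucleotides (range 1 to 57) and a median GC content of 69.7%. The 7594 tested genes with a window had a median of 21 and a GC content of 60.7%, and all 27025 genes with one a median of 7. At least 1 CpG stood in 100% of the members' windows and in 94.2% of all windows, so its presence sets no gene apart. The gene that lay higher and those that lay lower all had windows rich in CpG, above the median of the tested genes.

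All 3 members grouped here as H3 lysine 36 methyltransferases lay lower in every cKO library than in either wild type library. That was so for 10.2% of all genes tested. None of the 3 passed the test (edgeR, 0 with an unadjusted p under 0.05). Setd2 encodes the enzyme that trimethylates lysine 36 behind elongating polymerase. It lay at 0.250, 0 and 0 CPM in cKO, from 4 counts in all, against 9.58 and 10.5 CPM (181 and 178 counts) in the wild type libraries. The exact Poisson intervals did not meet, with a highest upper limit of 0.641 CPM in cKO and a lowest lower limit of 8.23 CPM in wild type. Such intervals leave out the spread between libraries, so they do not bound the effect of genotype. For Crebbp they did not meet even within wild type, at 0.0577 to 0.542 CPM in replicate 1 and 23.0 to 27.9 CPM in replicate 2. The fitted log2 fold change of Setd2, -6.80, had a standard error of 3.25 (edgeR adjusted p = 0.968, DESeq2 adjusted p = 0.322). It ranged from -10.56 to -6.22 over all alternatives. Ash1l, a trithorax-group dimethylase of lysine 36, lay at 5.13, 0 and 0.601 CPM in cKO, against 13.7 and 20.3 CPM in wild type. In cKO replicate 2, the deepest library, it had no count. Exons of Ash1l share 352 bases with Dap3 on the opposite strand. Whether counting used strand is not stated, so reads from those bases cannot be told apart, and Dap3 lay between 29.5 and 94.7 CPM. Exons of Setdb1, Smarcc1, Pbrm1, Dnmt3a and Smarca2 share 15 to 133 bases with another gene of the table, and their levels carry the same limit. The genes that overlap Dnmt3a and Smarca2 lay at 0 CPM in all 5 libraries. Nsd1, which dimethylates lysine 36, lay at 16.8, 6.62 and 14.3 CPM in cKO, against 21.5 and 37.9 CPM in wild type. Its log2 fold change of -1.24 had a standard error of 1.15. The 3 genes summed to 22.2, 6.62 and 14.9 CPM in cKO and to 44.8 and 68.7 CPM in wild type. In bulk RNA, fewer cells that express a gene and less RNA per cell cannot be told apart.

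A list of other lysine methyltransferase genes held enzymes of H3 lysines 9, 36 and 79 together with Kmt5 genes for H4 lysine 20 and members of the SMYD and SETD families. Of 13 tested, 10 were higher and 3 lower in cKO, and 0 passed (edgeR). Their median log2 fold change was 1.18. Setdb2 was read in cKO replicates 2 and 3 alone, at 16.5 and 14.7 CPM. Kmt5b, a lysine 20 methyltransferase of histone H4, lay at 3.07, 15.1 and 24.4 CPM in cKO, against 4.71 and 1.06 CPM in wild type. The paralogs of Nsd1 in this list went in opposite directions. Nsd2 lay at 0.438, 2.44 and 1.20 CPM in cKO, against 10.2 and 2.83 CPM in wild type. Nsd3 lay at 9.57, 2.34 and 19.6 CPM in cKO and at 7.67 and 0.884 CPM in wild type.

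**Figure D2:**
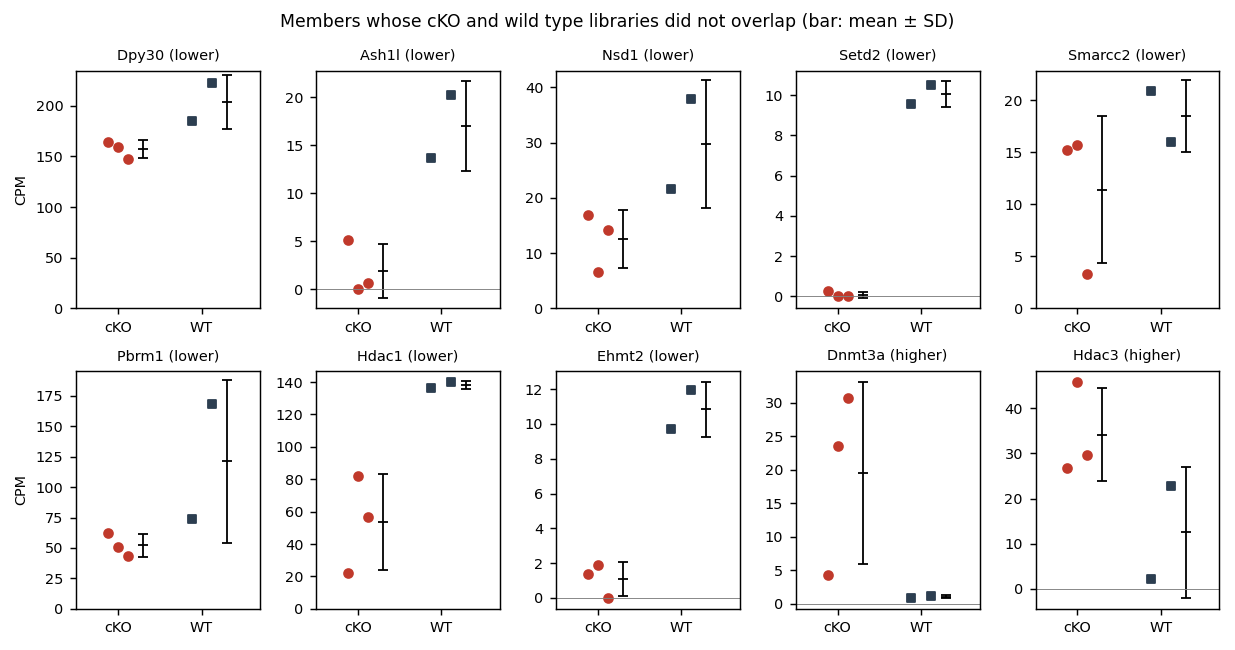
CPM of the 10 members whose cKO and wild type libraries did not overlap, by library (red circles cKO, dark squares wild type), with the mean ± SD of each group beside the points. Setd2 has no cKO library above 0.250 CPM and both wild type libraries near 10 CPM, while Dnmt3a has cKO libraries spread from 4.32 to 30.7 CPM and wild type libraries near 1 CPM.

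The genes for both de novo DNA methyltransferases lay higher in cKO, without passing the test. Dnmt3a lay at 4.32, 23.6 and 30.7 CPM in cKO, against 0.900 and 1.18 CPM (17 and 20 counts) in the wild type libraries. All 3 cKO libraries were above both wild type libraries, though cKO replicate 1 was far below the other two. The log2 fold change, 4.22, had a standard error of 2.13 (edgeR adjusted p = 0.968), and DESeq2 gave an adjusted p of 0.107, the smallest of any member under that tool. Dnmt3b, the second de novo methyltransferase, lay at 15.8, 15.4 and 0 CPM in cKO, with 1 count over both wild type libraries. The ratio of pooled levels was 441, with a 95% counting interval from 78.9 to 17439. That interval pools reads over libraries and leaves out the spread between them, so it does not bound the effect of genotype. The fitted log2 fold change, 8.27, had a standard error of 4.34 (approximate 95% interval -2.10 to 18.6, edgeR adjusted p = 0.997). The groups of Dnmt3b overlapped because cKO replicate 3 had no count. Dnmt1, the maintenance methyltransferase of dividing cells, was uneven, at 0.188, 12.6 and 0 CPM in cKO against 5.5 and 14.5 CPM in wild type. Transcripts of S phase, in which Dnmt1 is known to act, summed to 870, 1142 and 1092 CPM in cKO and to 952 and 972 CPM in wild type, over 25 genes of which 11 lay higher and 11 lower. The part of cycling cells in the level of Dnmt1 was not tested.

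The TET enzymes oxidise methylated cytosine. Tet2 was the steadiest of them, at 6.19, 8.32 and 5.41 CPM in cKO and 6.61 and 9.49 CPM in wild type, with a log2 fold change of -0.28 (standard error 2.07). Tet3 lay at 0, 21.7 and 0.172 CPM in cKO and at 10.7 and 1.59 CPM in wild type, so each group held a high and a low library. Tet1 had no count in any of the 5 libraries. Among readers and partners of DNA methylation 5 of 8 tested genes lay higher and 3 lower, and 0 passed. In that list Tdg, a glycosylase that excises oxidised cytosine, lay at 15.3, 23.8 and 21.0 CPM in cKO, against 6.83 and 2.42 CPM in wild type. Kdm2b, a CpG-binding protein of a PRC1 complex, lay at 25, 5.59 and 1.55 CPM in cKO and at 0.847 and 2.12 CPM in wild type.

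Of the deacetylases, Hdac1 and Hdac3 lay apart in opposite directions. Hdac1, a catalytic subunit of the NuRD, Sin3 and CoREST corepressors (chromosome 4), lay at 22.3, 81.7 and 56.9 CPM in cKO, against 136 and 140 CPM in wild type. The wild type libraries differed by less than 4 CPM and the cKO libraries spread widely below them. The mean was 53.6 ± 29.9 CPM in cKO and 138 ± 2.69 CPM in wild type (SD, n = 3 and n = 2). The log2 fold change was -1.37 (standard error 0.59, edgeR adjusted p = 0.968). Its paralog Hdac2 lay at 29.5, 28.5 and 0.343 CPM in cKO and at 5.45 and 39.2 CPM in wild type. Per kilobase, Hdac1 exceeded Hdac2 in all libraries except cKO replicate 1, where the RPKM values were 11.3 for Hdac1 and 14.7 for Hdac2. Hdac3, the enzyme of the NCoR and SMRT corepressors, lay at 26.8, 45.9 and 29.6 CPM in cKO, against 2.22 and 22.8 CPM in wild type. Without wild type replicate 1 its log2 fold change was 0.59, and with all libraries 1.45 (standard error 1.23).

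Genes of other deacetylases and of corepressors lay in both directions, and 0 of the 20 tested passed (edgeR), with 11 higher and 9 lower. The groups did not overlap for 8 of them (40% of the 20, against 19% of all genes tested), 4 in each direction. Sirt6, a deacetylase of the sirtuin family, had no count in cKO, against 6.14 and 0.943 CPM in wild type. Hdac8 lay at 0.0626, 6.69 and 2.92 CPM in cKO and had no count in wild type. Ncor1, a corepressor that holds Hdac3, was not among the 2 genes of smallest p in its list and was chosen after its values were seen. It lay at 30.8, 45.1 and 21.5 CPM in cKO, against 98.8 and 58.0 CPM in wild type, opposite in direction to Hdac3.

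The H3 lysine 27 demethylases did not pass the test, like all genes tested. Kdm6b, which is induced in activated myeloid cells, lay at 35.1, 17.1 and 44.7 CPM in cKO and at 22.2 and 28.6 CPM in wild type. The cKO libraries lay on both sides of the wild type ones, with a log2 fold change of 0.35 (standard error 0.85, approximate 95% interval -1.67 to 2.36). Early response and dissociation genes summed to 3990, 8459 and 5317 CPM in cKO and to 6060 and 4742 CPM in wild type. The library with the highest sum of these genes, cKO replicate 2, had the lowest Kdm6b, and the part of these genes in its level was not tested. Kdm6a lies on the X chromosome and was close to undetected: 157 counts in cKO replicate 2 and 16 in wild type replicate 2, or 5.56 and 0.943 CPM, and none in the other 3 libraries. Its log2 fold change of 1.96 had a standard error of 3.58 (approximate 95% interval -6.59 to 10.5), so a large difference in either direction is not excluded. Wild type replicate 2 alone carried Xist, at 69.1 CPM, and it had 0.0590 CPM of the Y-linked Ddx3y, against 53.9 to 86.8 CPM in cKO and 78.4 CPM in wild type replicate 1. The Y-linked Eif2s3y did not follow Ddx3y in wild type replicate 1: it lay at 80.7, 61.0 and 105 CPM in cKO, against 1.38 and 0 CPM in wild type. The part of sex in the level of Kdm6a was not tested. Its Y-linked paralog Uty had no count in any library. Per kilobase, Kdm6b lay at 2.57 to 6.72 RPKM and Kdm6a at 0 to 1.06 RPKM.

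Of 11 other demethylase genes tested, 7 lay higher and 4 lower, and 0 passed (edgeR). Kdm4a, a demethylase of lysines 9 and 36, was read in cKO replicates 1 and 2 alone, at 11.9 and 14.7 CPM. Kdm5b, which removes lysine 4 methylation, lay at 18, 12.1 and 12.8 CPM in cKO, against 0 and 1.24 CPM in wild type.

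The opposing acetyltransferases of lysine 27 were present in some libraries and nearly absent from others of the same genotype. Crebbp, which encodes CBP, lay at 17.7, 0.850 and 0.429 CPM in cKO and at 0.212 and 25.4 CPM in wild type. Ep300, which encodes p300, lay at 29.4, 0.743 and 13.2 CPM in cKO and at 21.9 and 3.30 CPM in wild type. Both genes were under 1 CPM in cKO replicate 2, the library with the most counts. The pair summed to 47.1, 1.59 and 13.7 CPM in cKO and to 22.1 and 28.7 CPM in wild type. Among 10 other acetyltransferases and acetyl-lysine readers 5 lay higher and 5 lower. Kat6b lay at 37.8, 11.1 and 38.5 CPM in cKO, against 1.91 and 5.42 CPM in wild type, and Kat8 lay at 0.0626, 6.23 and 0 CPM in cKO, against 14.2 and 30.9 CPM in wild type.

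**Figure D3:**
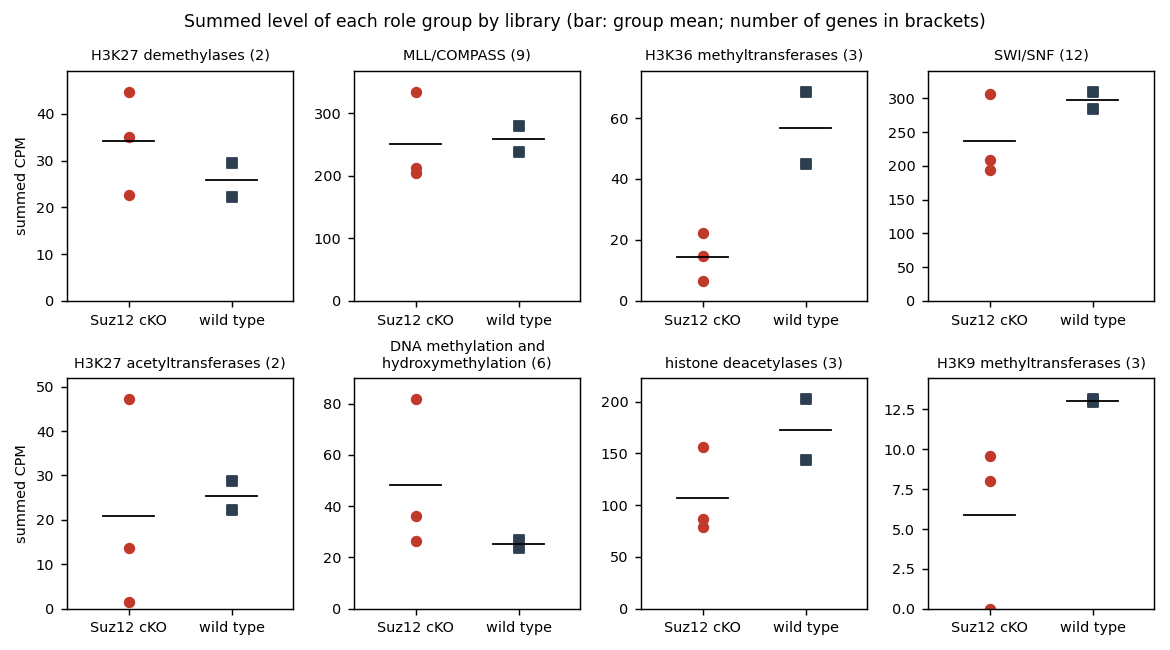
Summed CPM of the 8 role groups in each library (red circles Suz12 cKO, dark squares wild type, bar at the group mean). The lysine 36 group sums to 6.62 to 22.2 CPM in cKO and 44.8 to 68.7 CPM in wild type. The lysine 9 group sums to 0 to 9.56 CPM in cKO and 13.0 to 13.1 CPM in wild type, but of its genes Ehmt2 alone lay lower in every cKO library. The MLL/COMPASS sums of the genotypes overlap.

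Of the MLL/COMPASS genes, Dpy30 alone lay at 10 CPM or more in all 5 libraries, and Ash2l, Rbbp5, Men1, Kmt2a, Kmt2b and Kmt2d had no count in at least 1 library. Dpy30, a subunit shared by all these complexes, was the most abundant member per kilobase (mean 159 RPKM over the 5 libraries). It lay at 164, 160 and 148 CPM in cKO, against 185 and 222 CPM in wild type. The groups did not overlap, but the log2 fold change of -0.37 was small (standard error 0.31, approximate 95% interval -1.12 to 0.37). Wdr5, which holds the complex to the histone tail, lay at 2.82, 53.5 and 20.8 CPM in cKO and at 31.9 and 7.66 CPM in wild type. Ash2l, another core subunit, lay at 21.4, 69.0 and 0 CPM in cKO and at 0 and 17.0 CPM in wild type. Rbbp5, the fourth core subunit, lay at 15.6, 0 and 0 CPM in cKO and at 3.81 and 0 CPM in wild type. Rbbp5 and Ash2l are partners in one complex, but they were found together above 10 CPM in cKO replicate 1 alone. Men1, which recruits the complexes of MLL1 and MLL2, lay at 20.4 CPM in cKO replicate 2 with none in the other cKO libraries, against 2.70 and 7.13 CPM in wild type.

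Of the catalytic genes, Kmt2c alone had a count in all 5 libraries. Kmt2a (MLL1) lay at 0, 0.0354 and 24.3 CPM in cKO and at 1.01 and 0.118 CPM in wild type. Kmt2b had 77 counts in cKO replicate 3 and none elsewhere, at least 16.5-fold higher in cKO with the floor of 3 counts set over the wild type group. That bound rests on 1 library, and the gene had too few counts to test. Kmt2c, an enhancer methyltransferase, lay at 0.0626, 32.3 and 12.2 CPM in cKO and at 14.1 and 15.9 CPM in wild type. Kmt2d, its paralog, lay at 0, 0.0708 and 0.859 CPM in cKO and at 0 and 9.84 CPM in wild type. Its log2 fold change of -3.98 (standard error 3.32) rests on wild type replicate 2, where it had 167 counts, while the cKO libraries had 0, 2 and 10. Among 10 other tested COMPASS genes 5 lay higher and 5 lower, and 0 passed. Wdr82, a subunit of the SET1 complexes, lay at 52.4, 21.2 and 8.33 CPM in cKO, against 0 and 1.0 CPM in wild type. Ncoa6, of the MLL3 and MLL4 complexes, was read in cKO replicates 2 and 3 alone, at 2.02 and 9.27 CPM.

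The SWI/SNF genes were evenly split, with 6 of 12 higher and 6 lower and a median log2 fold change of 0.18. Pbrm1, the polybromo subunit that defines the PBAF complex, lay at 62.4, 50.6 and 43.1 CPM in cKO, against 73.6 and 169 CPM in wild type. All cKO libraries were below both wild type libraries, and wild type replicate 2 was far above replicate 1. The log2 fold change, -1.22, had a standard error of 0.51 (unadjusted p = 0.0490, edgeR adjusted p = 0.968), and without wild type replicate 2 it was -0.50. Arid2, the other defining PBAF subunit, lay at 0, 13.1 and 5.15 CPM in cKO and at 1.22 and 0.472 CPM in wild type, opposite in sign to Pbrm1. Arid1a and Arid1b, the alternative subunits of canonical BAF, reached at most 8.41 and 13.4 CPM, in cKO replicates 3 and 1. Smarcc2, a scaffold subunit, lay at 15.2, 15.7 and 3.26 CPM in cKO, against 20.9 and 16 CPM in wild type. These groups only just failed to overlap, and the log2 fold change was -0.70 (standard error 1.54).

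The core and ATPase subunits of SWI/SNF did not pass the test either. Smarcb1, a subunit of all canonical SWI/SNF forms, lay at 43.3, 37.8 and 58.2 CPM in cKO and at 78.1 and 36.6 CPM in wild type. Smarca4, the ATPase BRG1, lay at 21.5, 16 and 11.0 CPM in cKO and at 17.5 and 25.3 CPM in wild type (log2 fold change -0.40, standard error 1.19). Its paralog Smarca2, the ATPase BRM, lay at 3.82, 21.2 and 0 CPM in cKO and at 32.1 and 0 CPM in wild type. Per kilobase, Smarca4 stayed between 1.72 and 3.97 RPKM while Smarca2 ran from 0 to 5.28 RPKM. Smarce1 lay at 10.6, 54.7 and 49.2 CPM in cKO and at 23.3 and 19.0 CPM in wild type, with a log2 fold change of 0.85 (standard error 0.96). Smarcd2, a subunit with a role in granulocyte development, lay at 21.4, 81.3 and 26.6 CPM in cKO and at 19.3 and 35.5 CPM in wild type. Smarcd1 and Smarcc1 lay at no more than 8.67 and 16.2 CPM in any library. Among 17 other tested remodeller genes 10 lay higher and 7 lower, and 0 passed. Actb, a SWI/SNF subunit as well as the cytoskeletal actin, lay at 2978, 2667 and 3396 CPM in cKO, against 4574 and 4420 CPM in wild type (log2 fold change -0.58, standard error 0.24, edgeR adjusted p = 0.968). Chd3, a NuRD remodeller, lay at 4.38, 1.35 and 3.95 CPM in cKO, against 0.212 and 0.177 CPM in wild type.

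The H3 lysine 9 methyltransferases were scarce. Ehmt2 (G9a) lay at 1.38, 1.88 and 0 CPM in cKO, against 9.74 and 12 CPM in wild type. The log2 fold change, -3.31, had a standard error of 2.74 (edgeR adjusted p = 0.999). All cKO libraries were below both wild type libraries, with 22, 53 and 0 counts in cKO and 184 and 203 counts in wild type. Its partner Ehmt1 (GLP) had 191 counts in cKO replicate 2 and none elsewhere, at least 40.9-fold higher in cKO with the floor set over the wild type group, a bound that rests on 1 library. Setdb1, which silences retroelements, lay at 6.63, 0.920 and 0 CPM in cKO and at 3.39 and 1.0 CPM in wild type. The 3 genes summed to 8.01, 9.56 and 0 CPM in cKO and to 13.1 and 13.0 CPM in wild type. Of them Ehmt2 alone lay lower in every cKO library, and Setdb1 had a log2 fold change of 0.20 (standard error 2.80).

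Many of these regulators were present in some libraries and absent from others, within either genotype. Of the 40 members, 22 had no count in at least 1 library, and 19 were at 0 in 1 library while holding 100 counts or more in another. That was so for 48.6% of the tested members and 34.7% of all genes tested. From 6 to 14 members had no count in a cKO library (9, 6 and 14 in replicates 1 to 3) and 7 and 6 in the wild type libraries. Most members were low: their median level was 8.91 CPM, against 17.3 CPM over all genes tested. Among genes in the range of the middle members, 4.99 to 21.5 CPM, 73.4% lay at 10 CPM or more in 1 library and under 1 CPM in another, and so did 15 of the 19 members in that range (78.9%). The 8 members at 10 CPM or more in all libraries were Kdm6b, Dpy30, Smarca4, Smarcb1, Smarcd2, Smarce1, Pbrm1 and Hdac1.

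Over the 37 tested members the SD of log2(CPM + 1) between libraries had a Spearman rho of -0.44 with the mean level and 0.16 with gene length. These correlations are across genes that share the same 5 libraries and are given as a description. Gene length and level were themselves related (rho -0.42). Dpy30 (1108 bases) had the smallest spread, followed by Tet2 (9181 bases), and Ash2l (2517 bases) had the largest of the 37. The part of length in the spread was not tested.

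**Figure D4:**
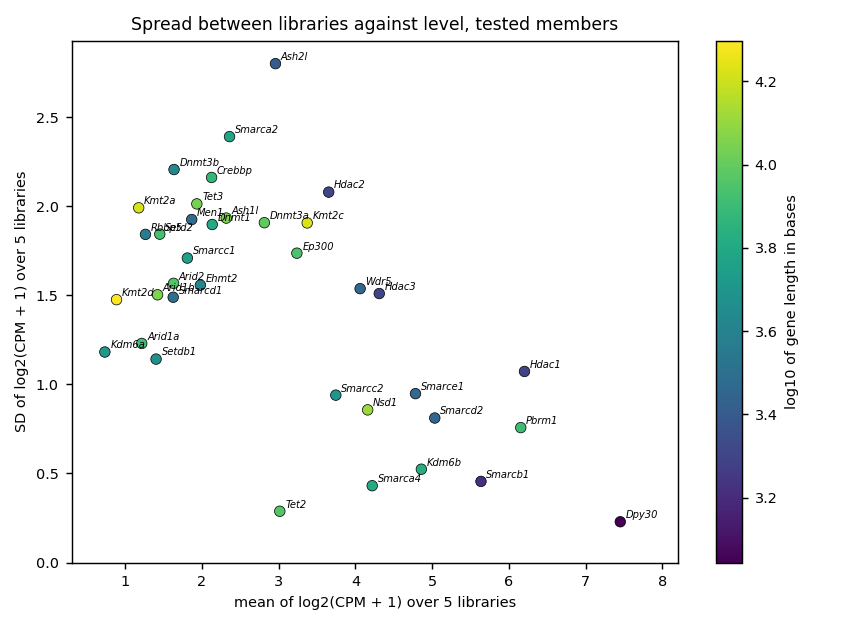
SD against mean of log2(CPM + 1) over the 5 libraries for the 37 tested members, coloured by the log10 of gene length in bases. Dpy30 sits at high level and low spread, and Ash2l at the top with a count of 0 in cKO replicate 3 and wild type replicate 1.

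**Figure D5:**
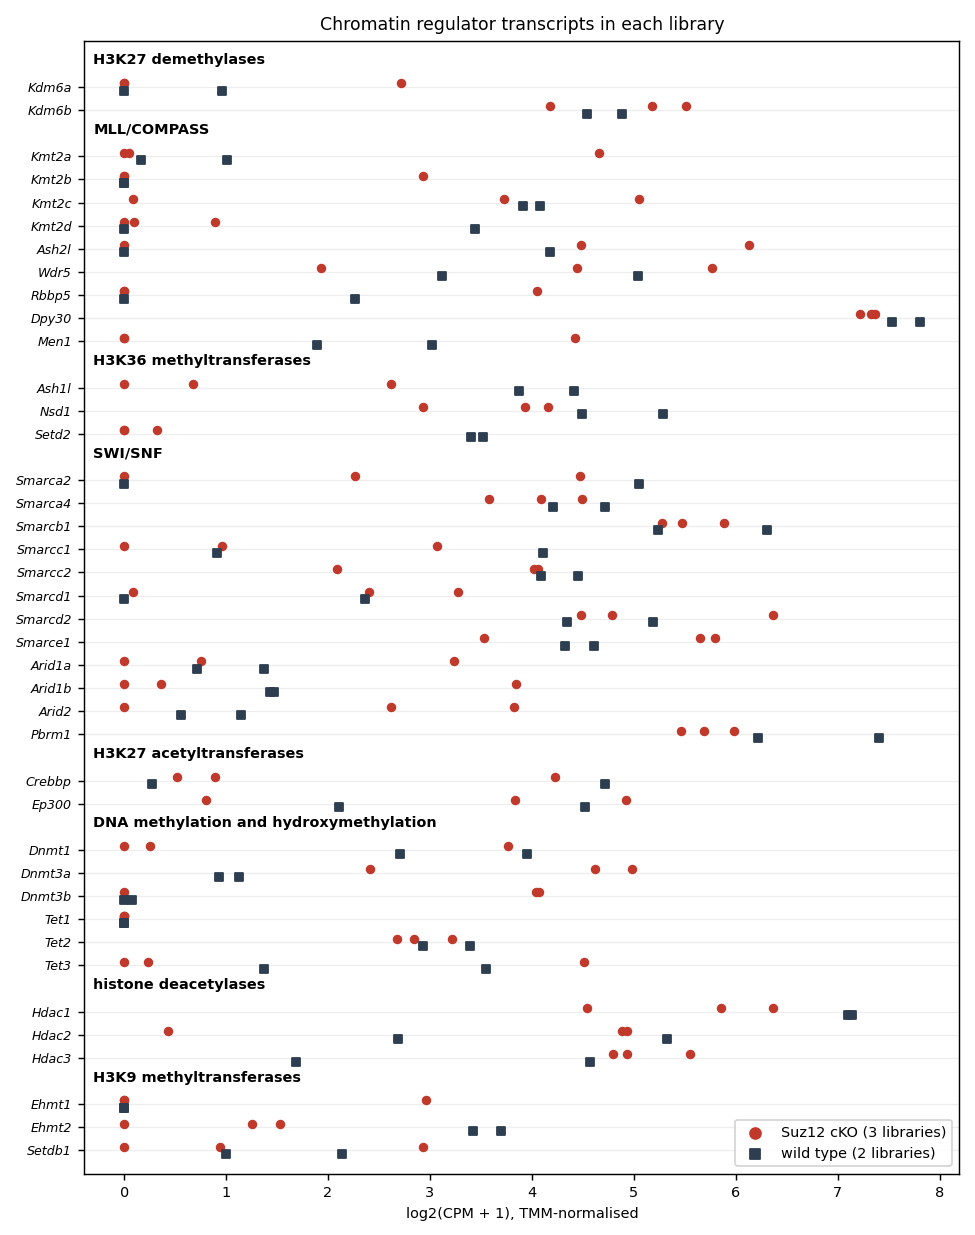
Level of each of the 40 members, by role, as log2(CPM + 1) in each library (red circles Suz12 cKO, dark squares wild type). In 22 rows at least 1 library sits at 0, and the lysine 36 rows hold all cKO points to the left of the wild type points.

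Markers of other cell types differed between libraries as well. The 16 keratinocyte genes, all of them with counts, summed to 983, 1247 and 1176 CPM in cKO, against 507 and 874 CPM in wild type, and 10 of 13 tested lay higher. The 12 genes of dermal macrophages and monocytes summed to 250, 591 and 419 CPM in cKO, against 775 and 539 CPM in wild type, with 7 of 9 tested lower and Folr2 and Lyve1 at 0. Melanocyte genes summed to 49.9, 33.1 and 145 CPM in cKO and to 39.6 and 429 CPM in wild type, with 5 of 5 tested lower. T cell genes summed to 1058, 564 and 391 CPM in cKO and to 851 and 583 CPM in wild type, with 6 of 8 tested lower. Of 7 mast cell genes 5 had no count in any library. The 8 genes of fibroblasts and endothelium summed to 9.76, 46.8 and 211 CPM in cKO and to 21.2 and 109 CPM in wild type, with Cdh5 at 0. The part of these cells in the levels of Setd2, Ash1l, Nsd1, Hdac1, Pbrm1, Ehmt2 or Dnmt3a was not tested. The other core genes of PRC2 overlapped between genotypes: Eed, Ezh1 and Ezh2 had log2 fold changes of 0.68, 1.06 and 0.44 with standard errors of 0.78, 1.37 and 0.94.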

How the data were processed

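Raw counts per gene were deposited by the authors; the submitters' processing notes name featureCounts and mm10. The counts came as a series table and per sample. The 5 files per sample were identical to the table. The aligner, its version, the use of strand and the treatment of multi-mapping reads were not given in the sources used here. Gene lengths are those of the table, and RPKM is CPM per kilobase of that length. Symbols came from RefSeq on GRCm38.p6 for 25275 of 27179 genes, and the 1904 without one (1.46% to 2.30% of counts) stayed in the fit.

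Libraries were grouped by title. The test was edgeR 4.0.16 (R 4.3.3): genes kept by filterByExpr (minimum count 10), factors by TMM, robust quasi-likelihood F test with the legacy setting, Benjamini-Hochberg adjustment over all genes tested. The log2 fold change is cKO over wild type, and standard errors are the fold change over the square root of F. Alternatives used DESeq2 1.42.0, limma-voom (limma 3.58.1), other factors, filters and designs, and each library left out. Fits were run on simulated counts as a check of the code. How many changes they recovered at the spread of these libraries is not given here. No same-group libraries agreed within counting noise (chi-square per degree of freedom 161 to 376). Exon overlaps came from GENCODE vM21.

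The members and lists were chosen with earlier results of these data known. Values in each library are given for Kdm6a and Kdm6b; in each role group for the members that passed or the 3 with the smallest p, and the most abundant; for members whose groups did not overlap or had no count in 1 group; and, in each related list, for 2 genes with the smallest p. Others were chosen after their values were seen. Of the related list names, 1 was an older name of a listed gene. Figures used matplotlib 3.10.9 in Python 3.11.15.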

Additional observations from a re-analysis of the deposited data

How the results depend on the processing

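The count of called members was 0 in each of the 15 alternatives, and the smallest adjusted p of a member was 0.107 (Dnmt3a, DESeq2). The count over all genes was 0 in all but 2 of them: DESeq2 called 191 (137 higher, 54 lower) and the replicate block called 1. The members' median log2 fold change of 0.20 was -0.52 with limma-voom and ranged from -0.47 to 0.35 with a library left out. Of 37 tested members, 17 kept their direction in every alternative that could be fitted. They were Setd2, Ash1l, Nsd1, Hdac1, Hdac3, Pbrm1, Ehmt2, Dnmt3a, Dnmt3b, Dpy30, Smarcc2, Ash2l, Dnmt1, Kmt2d, Smarca4, Smarcd1 and Smarce1. Where the groups did not overlap, leaving out 1 library could hardly change the sign, so a kept direction adds no support. The same share over all genes tested was not counted. The other 20 members changed sign at least once, in 54 of 543 values, and the cause was not tested. Kmt2c was 0.00269 with RLE factors, 0.00277 with DESeq2, 0.0156 with no filter and 0.27 without the legacy setting, where Ep300 was -0.12 and Hdac2 was 0.0392. With limma-voom the values were Arid1a -0.00238, Arid1b -2.03, Ep300 -0.57, Kdm6a -0.80, Men1 -5.16, Rbbp5 -0.30, Setdb1 -2.15, Tet3 -3.98 and Wdr5 -0.0375. With the replicate block they were Arid1a -3.32, Arid2 -0.46, Crebbp 0.68, Ep300 -0.85, Hdac2 0.98, Kdm6b -0.0410, Kmt2a -3.87, Men1 -2.66, Smarca2 3.17, Tet3 -2.47 and Wdr5 -0.34. With a term for how samples were titled they were Arid1b -1.92, Kmt2a -2.98, Men1 -2.87, Setdb1 -2.52 and Tet3 -1.39. With a library left out, the fold change ran from -1.72 to 2.24 for Arid1a, -3.46 to 1.95 for Arid1b, -4.28 to 4.83 for Crebbp, -0.85 to 2.13 for Ep300, -1.01 to 1.84 for Hdac2, -1.29 to 0.60 for Kmt2c, -9.29 to 1.38 for Men1, -2.18 to 1.33 for Setdb1, -3.07 to 10.25 for Smarca2, -0.75 to 0.35 for Smarcb1, -4.16 to 1.65 for Smarcc1, -0.19 to 1.18 for Smarcd2, -0.51 to 0.0148 for Tet2, -6.08 to 2.20 for Tet3 and -0.75 to 1.75 for Wdr5. Fits that leave 1 wild type library assume that it varies like the cKO libraries.

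The labels name no batch, and the main fit did not pair same-numbered libraries. The correlation of their deviations from the group mean was -0.03 for number 1 and -0.02 for number 2. With 2 wild type libraries, the deviations of 1 mirror those of the other, so these values are not separate checks. They cannot settle whether same-numbered libraries shared a preparation. A count of 0 leaves a level of up to 0.106 to 0.258 CPM, by library, and the spread between 3 and 2 libraries limits the comparison.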
